A study of Mus musculus with 10 samples.

Results

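The nuclear genome encodes most subunits of the last 3 complexes of oxidative phosphorylation, and their transcripts were described here in granulocyte-monocyte progenitors (GMPs) shortly after deletion of Mpc2. MPC2 is a subunit of the mitochondrial pyruvate carrier, which brings pyruvate into mitochondria. The members were all protein-coding genes with symbols starting with Uqcr, Cox4 to Cox8 or Atp5, with Cyc1 and Cycs and without -ps symbols. This gave 47 gene identifiers with 46 symbols among the 51717 genes to which reads were summed, namely 9 of complex III, 1 for cytochrome c, 18 of complex IV and 19 of complex V. Usmg5 was included because RefSeq names it Atp5md, and the second identifier of Atp5o had no reads.

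CD45.2+ GMPs were sorted from mixed bone marrow chimeras. The WT samples had the genotype ROSA26 CreER+/-, the recent KO samples were Mpc2fl/fl; ROSA26 CreER+/-, and both were C57Bl6/N and male. All mice ate tamoxifen chow for 2 wk and were then analyzed, so that CreER and tamoxifen were shared by both groups. CreER is expressed broadly from the ROSA26 locus, so deletion was not limited to GMPs. Each WT sample (n = 5) came from 1 mouse, and each recent KO sample (n = 5) was a pool of 2 mice. The libraries held 14033776 to 19745405 estimated reads. As a check of the labels, Mpc2 fell from 89.1 ± 26.9 CPM (reads relative to the TMM-normalized library total; SD, n = 5) in WT GMPs to 32.2 ± 10.2 (SD, n = 5) in recent KO GMPs, with no overlap between the groups (log2 fold change −1.46, SE 0.24, adjusted p = 0.0156, edgeR's quasi-likelihood test). Of the markers of GMPs, Mpo, the myeloperoxidase of primary granules, measured 61005 ± 7466 CPM in the WT group and 42407 ± 7537 CPM after deletion (SD, n = 5).

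Complex III, the cytochrome bc1 complex, passes electrons from ubiquinol to cytochrome c and pumps protons. Complex IV, cytochrome c oxidase, passes them from cytochrome c to oxygen. Complex V, the ATP synthase, uses the returning protons to turn a ring of c subunits and to make ATP. The mitochondrial genome encodes the cytochrome b of complex III, the catalytic core of complex IV and 2 membrane subunits of complex V, and all other subunits are imported. Several subunits of complex IV have isoforms known for muscle or testis, and the c subunit has 3 genes.

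The c subunit is the case in which the sequences bear on the measurement. Atp5g1 (chromosome 11, 96068852 to 96075670 on GRCm38), Atp5g2 (chromosome 15, 102662864 to 102672352) and Atp5g3 (chromosome 2, 73908447 to 73911326) encode precursors with different targeting peptides and the same c subunit. In their main protein-coding GENCODE M21 transcripts, the last 78 codons, or 234 bases, translate to the same residues in all 3 genes. Their coding bases are shown 5′ to 3′ without the stop codon, with capitals at the 63 positions at which the 3 genes do not all carry the same base.
Atp5g1: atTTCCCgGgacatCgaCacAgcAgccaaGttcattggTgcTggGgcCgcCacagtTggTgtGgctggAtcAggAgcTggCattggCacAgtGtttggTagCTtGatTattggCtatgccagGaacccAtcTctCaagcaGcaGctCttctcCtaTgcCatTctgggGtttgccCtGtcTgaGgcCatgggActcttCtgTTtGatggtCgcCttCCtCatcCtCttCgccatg
Atp5g2: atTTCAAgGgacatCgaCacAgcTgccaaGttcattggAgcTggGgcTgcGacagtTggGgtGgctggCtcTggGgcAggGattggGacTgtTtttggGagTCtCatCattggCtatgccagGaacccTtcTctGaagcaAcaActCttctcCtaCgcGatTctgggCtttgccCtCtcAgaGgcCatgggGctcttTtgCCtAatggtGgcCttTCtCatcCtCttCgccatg
Atp5g3: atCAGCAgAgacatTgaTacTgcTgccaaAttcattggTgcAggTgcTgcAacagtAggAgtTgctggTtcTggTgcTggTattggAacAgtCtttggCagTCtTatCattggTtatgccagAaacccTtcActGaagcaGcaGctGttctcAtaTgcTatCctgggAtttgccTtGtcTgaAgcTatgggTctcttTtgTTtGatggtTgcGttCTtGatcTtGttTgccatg
Atp5g2 differed from Atp5g1 at 36 of these bases (84.6% identical), and Atp5g3 differed from Atp5g1 at 50 (78.6% identical). Reads that cover these positions can therefore be told apart, although the mature protein is the same. The same is not true of Atp5g2 and the pseudogene Gm10175 on chromosome 7, whose transcript matched Atp5g2 at 100% over 645 aligned bases.

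Upstream sequences were examined because nuclear respiratory genes are known for sites of the factors NRF1 and GABPA. Upstream windows of 250 bases were found in the RefSeq promoter table (GRCm38) for 35 of the 46 symbols, as 38 promoters. The NRF1 core GCATGCGC, on either strand, was present in 5 of the 38 (13.2%) and in 2.93% of the 21262 promoters of protein-coding genes. The ETS core CCGGAAG, which GABPA binds, was present in 8 of 38 (21.1%, against 8.98% of all promoters). GGGCGG was present in 12 (31.6%, against 42.6%), CCAAT in 21 (55.3%, against 35.4%), TGACGTCA in 2 (5.26%, against 1.92%) and AAGATGGC in 1 (2.63%, against 1.496%). None of these motifs contains another. The 5 genes with the NRF1 core were Atp5g2, Atp5k, Atp5l, Cox6a1 and Cycs. Windows from 3 of them are shown on the strand of the gene, with the match in capitals. The window of Cycs (chr6:50566582-50566669, minus strand) has its match 60 bases before the start, that of Cox6a1 (chr5:115349073-115349160, minus strand) 162 bases before it, and that of Atp5l (chr9:44920935-44920992, minus strand) 240 bases before it.
Cycs: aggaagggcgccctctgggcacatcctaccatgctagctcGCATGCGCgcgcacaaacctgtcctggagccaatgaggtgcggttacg
Cox6a1: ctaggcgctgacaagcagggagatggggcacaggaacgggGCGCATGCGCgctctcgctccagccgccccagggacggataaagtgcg
Atp5l: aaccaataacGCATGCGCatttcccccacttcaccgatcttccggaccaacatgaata
In GENCODE M21, the windows of Cycs and Cox6a1 touch exons of the neighboring genes 5430402O13Rik and Gm42903, and that of Atp5l lies in Gm30934 outside its exons. In Cox6a1 the capitals cover the core on both strands, which overlap. A match is a description of the letters and does not show that the factor bound there. Nrf1 itself measured 36.6 ± 1.27 and 37.9 ± 5.21 CPM in WT and recent KO samples, and Gabpa 15.4 ± 2.01 and 16.1 ± 1.56 CPM (SD, n = 5).

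The subunit genes were among the abundant transcripts of GMPs. TPM, which corrects reads for transcript length and sums to an equal total in each sample, allows levels to be compared between genes. Over all samples, 39 members had a mean above 100 TPM and 22 above 1000 TPM. The members summed to 4.90% of all TPM in WT and 5.20% in recent KO samples. In complex III the small subunits led, with Uqcr11 at 3312 ± 226 TPM in WT (SD, n = 5) and Uqcr10 at 2352 ± 156. The longer core and redox subunits were lower, with Uqcrc1 at 600 ± 17.1 TPM, cytochrome c1 (Cyc1) at 407 ± 12.2, the Rieske protein Uqcrfs1 at 157 ± 12.5 and Uqcrc2 at 123 ± 7.75. In complex IV, Cox6a1 (2279 ± 140 TPM), Cox8a (2271 ± 94.6) and Cox4i1 (2261 ± 57.9) differed by less than their SDs. In complex V, Atp5g1 led with 2534 ± 145 TPM, and of the catalytic F1 head, Atp5b (beta) measured 1364 ± 52.0 TPM and Atp5a1 (alpha) 461 ± 15.8. At the low end, Atp5s (coupling factor B) measured 29.3 ± 3.29 TPM. The order of genes of different length is given as a description. It was not the same in CPM, which does not correct for length. There Uqcrc1 (1061 ± 54.4) exceeded Uqcr11 (699 ± 113) in WT samples, and Atp5b (2782 ± 155) exceeded Atp5g1 (1121 ± 146; SD, n = 5).

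**Figure D1:**
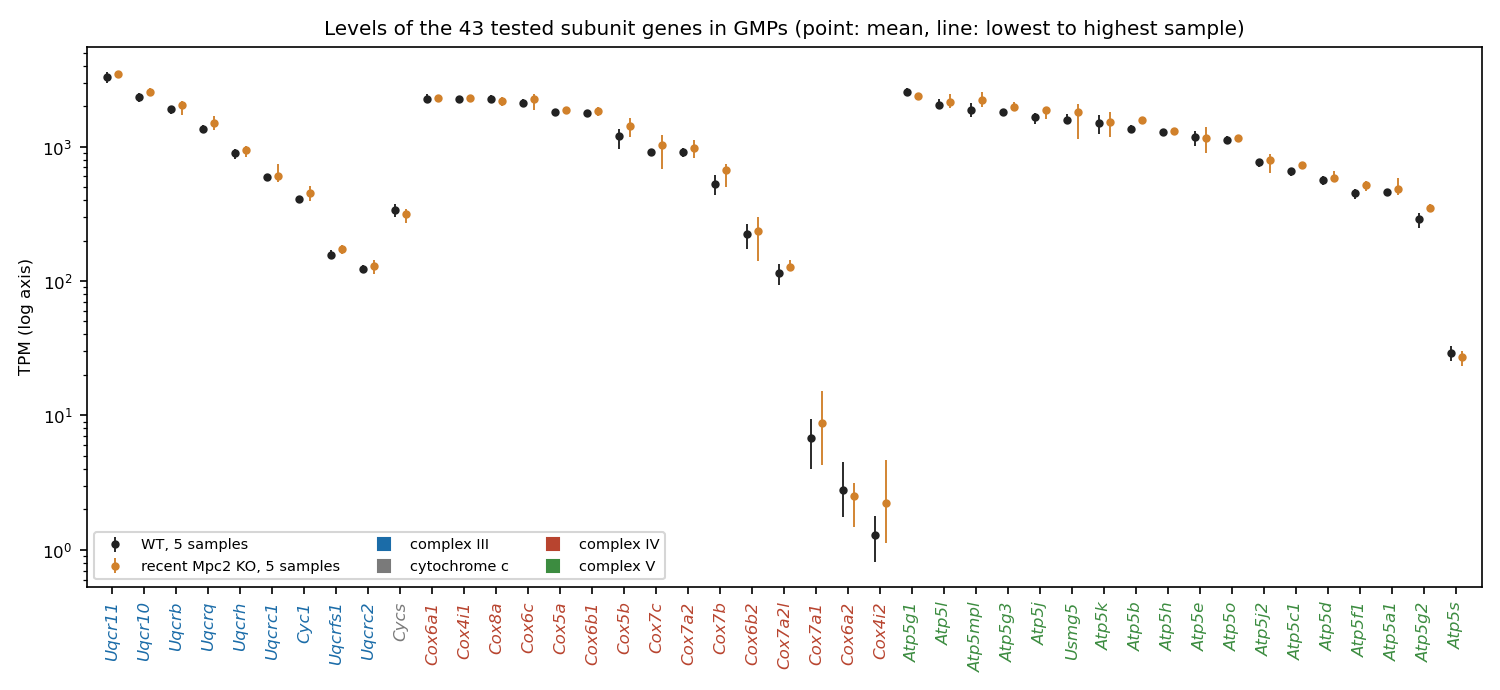
TPM (log axis) of each tested member in WT and recent KO GMPs, with the mean as a point and the lowest to highest of 5 samples as a line, ordered within each complex by mean level. The ranges of the groups overlapped for all members except Atp5b and Atp5g2, while 1.96% of all genes had separate groups on TPM. In normalized CPM the groups overlapped for both. Cox7a1, Cox6a2 and Cox4i2 lay far below the other subunits of complex IV.

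GMPs expressed the ubiquitous isoforms of complex IV. Cox4i2, the second isoform of subunit 4, took 0.0345% to 0.0780% of the TPM of its pair in WT and 0.0482% to 0.201% in recent KO samples. The muscle isoform Cox6a2 took 0.0835% to 0.190% and 0.0653% to 0.136%, respectively, and the muscle isoform Cox7a1 took 0.382% to 0.896% and 0.383% to 1.21% of subunit 7a. Cox6b2, known as a testis isoform, was the exception, with 9.04% to 13.1% of subunit 6b TPM in WT and 7.69% to 13.5% in recent KO samples, and a level of 225 ± 35.5 and 234 ± 63.2 TPM (SD, n = 5). Cox7a2l, a supercomplex factor related to subunit 7a, took 8.75% to 13.6% and 9.59% to 13.2%. The groups overlapped for each of these shares. Cox8b and Cox8c, the muscle and testis isoforms of subunit 8, had no reads in any sample, and 3 counts, the most that a count of 0 allows, corresponded to 0.147 to 0.233 CPM per sample. Cox7b2, a second isoform of subunit 7b, averaged 0.3 reads per sample. These 3 genes and the second identifier of Atp5o were not tested.

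The comparison of recent KO with WT GMPs addressed whether transcripts of these complexes changed when cells had just lost mitochondrial pyruvate import. The remaining 43 members passed the filter on low counts and were tested within the fit over 12381 genes. None had an adjusted p-value under 0.05 (edgeR's quasi-likelihood test, Benjamini-Hochberg adjustment over all genes), against 0.331% of all genes. DESeq2 also called none, and 4 members had an unadjusted p-value under 0.05 there, against 5.12% of 27909 genes. That fit had no filter on low counts, so its share cannot be set beside that of edgeR. In edgeR, 2 members had an unadjusted p-value under 0.05, against 10.2% of all genes. In normalized CPM, the 5 recent KO samples and the 5 WT samples overlapped for every member tested, so the count of separate groups was 0, against 2.43% of all genes, of which those higher in recent KO made up 1.11% of all genes tested.

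The intervals limited how large a change could have been missed. The 95% confidence interval of the fold change lay within 1.5-fold in either direction for 39 of 43 members. Among the 40 members with a mean count of at least 50, the lowest bound was 0.773-fold (Cycs) and the highest 1.5-fold (Usmg5). The other 3 were the scarce isoforms Cox4i2, Cox6a2 and Cox7a1, with intervals from 0.909- to 3.22-fold, from 0.570- to 1.43-fold and from 0.742- to 2.33-fold. The median log2 fold change was 0.07 over the 43 members and −0.00 over all genes, and 37 members had a value above 0 (86.0%, against 49.6% of all genes). By complex the medians were 0.07 over 9 members of complex III, 0.09 over 15 of complex IV and 0.06 over 18 of complex V, while Cycs stood at −0.14. Values above 0 were found for 7, 13 and 17 members of the 3 complexes. These medians were smaller than the spread between samples, as described below for transcript length. Most members were short, and over all short genes tested (effective length under 500 bases) the median was 0.04. The 36 nuclear subunits of complex I had a median of 0.07 with 30 above 0, and the 78 mitochondrial ribosomal proteins a median of 0.03 with 50 above 0.

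**Figure D2:**
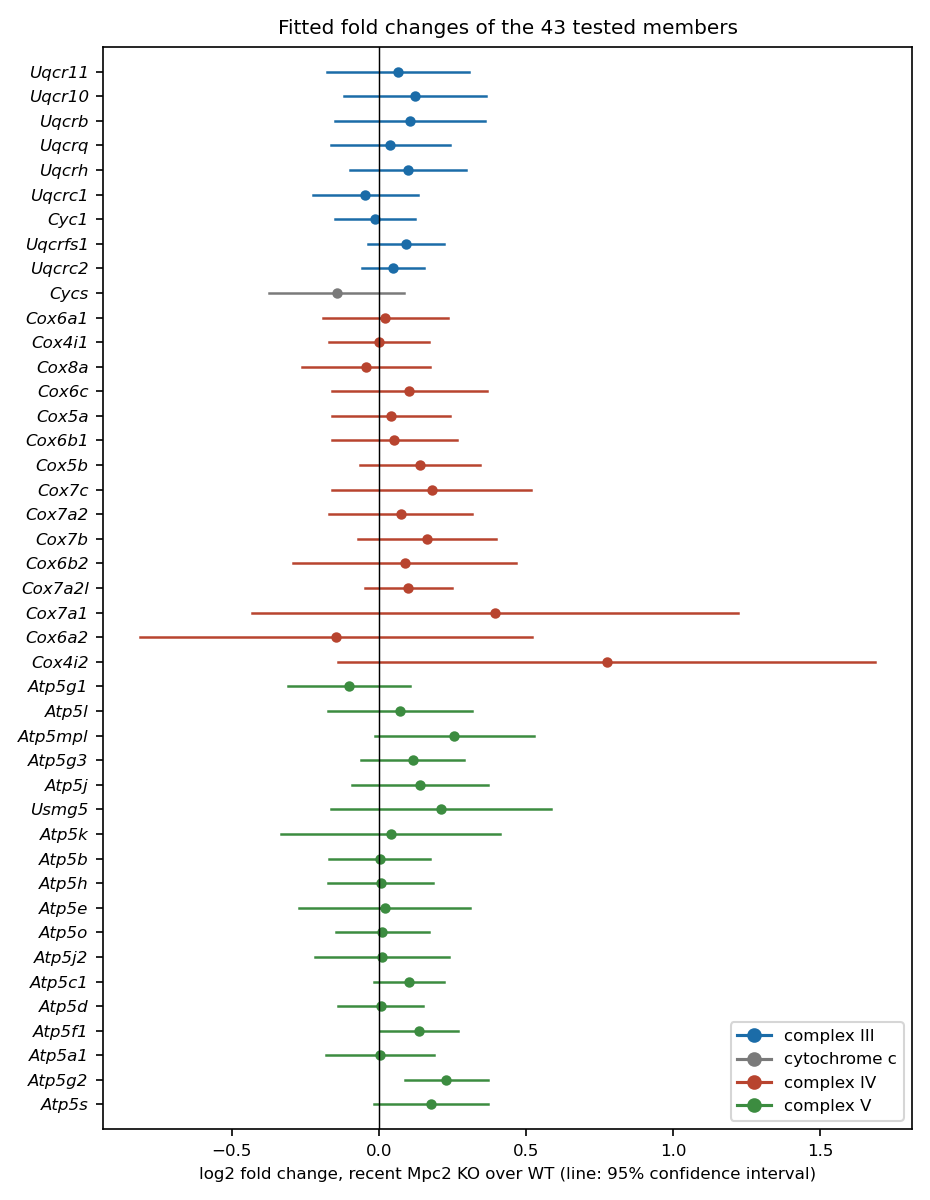
Fitted log2 fold change between recent KO and WT GMPs for each tested member (point) with its 95% confidence interval (line), colored by complex. All intervals cross 0 except those of Atp5f1 and Atp5g2, and the 3 longest belong to the scarce isoforms Cox7a1, Cox6a2 and Cox4i2.

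In complex III, the most abundant member by TPM was Uqcr11, a small accessory subunit (chromosome 10). Its WT samples measured 510.2, 759, 775, 774 and 674 CPM, and its recent KO samples 867, 657, 710.5, 726 and 695 CPM. The groups overlapped, with the lowest value in WT replicate 1 and the highest in recent KO replicate 1, and the log2 fold change was 0.07 (SE 0.11, adjusted p = 0.892, edgeR). Uqcr10, another small subunit (chromosome 11), had the largest log2 fold change of the complex. It measured 350.1, 503, 509, 496 and 482 CPM in WT and 617, 423, 524, 490.4 and 493 CPM in recent KO samples. WT replicate 1 was again the lowest and recent KO replicate 1 the highest, and the groups overlapped (log2 fold change 0.12, SE 0.11, adjusted p = 0.791). Uqcrc1, a core protein, had the smallest value within the complex (log2 fold change −0.05, SE 0.08, adjusted p = 0.900).

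Cycs, the somatic cytochrome c that carries electrons between complexes III and IV, had the lowest log2 fold change of all members with a mean count of at least 50. Its WT samples measured 986, 1291, 1225, 1462 and 1142 CPM and its recent KO samples 1219, 906, 1119, 1099 and 1183 CPM. Each recent KO sample lay within or below the WT range, and the log2 fold change was −0.14 (SE 0.11, adjusted p = 0.712). Cycs shares part of its sequence with other genes. The transcript of Gm10053 on chromosome 19 matched it at 99.9% over 946 aligned bases, the whole of the copy, and measured 469 ± 101 and 456 ± 60.9 CPM in WT and recent KO samples (SD, n = 5). Cycs held 69.1% of the summed reads of the gene and its 4 copies in WT and 67.1% in recent KO samples, and with the copies added the log2 fold change was −0.10 (adjusted p = 0.846). How Salmon divided reads among these loci cannot be checked in the estimates, so the level of Cycs alone is uncertain.

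In complex IV, Cox6a1, the ubiquitous form of subunit 6a (chromosome 5), was the most abundant member by TPM. It measured 652, 766, 954, 898 and 820.2 CPM in WT and 935, 739, 850.0, 821 and 808 CPM in recent KO samples. All recent KO values lay inside the WT range (log2 fold change 0.02, SE 0.10, adjusted p = 0.963). Cox7c, a small membrane subunit (chromosome 13), had the largest log2 fold change among members with a mean count of at least 50. Its WT samples measured 245, 285, 318, 315 and 281 CPM, and its recent KO samples 426, 191, 336, 330.0 and 353 CPM. Recent KO replicate 2 was the lowest of all 10 samples and the other 4 recent KO samples were above all WT samples (log2 fold change 0.18, SE 0.16, adjusted p = 0.774). Cox8a, the ubiquitous subunit 8 (chromosome 19), had the smallest value. It measured 624, 734, 877, 810.0 and 724 CPM in WT and 836, 595, 769, 738 and 718 CPM in recent KO samples, with groups that overlapped (log2 fold change −0.04, SE 0.10, adjusted p = 0.927).

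In complex V, Atp5mpl, a small proteolipid of the membrane part (chromosome 12), had the largest log2 fold change. Its WT samples measured 195, 267, 266, 236 and 266 CPM, and its recent KO samples 380.0, 218, 289, 286 and 296 CPM. Recent KO replicate 2 lay within the WT range and the other 4 lay above it (log2 fold change 0.26, SE 0.13, adjusted p = 0.510). Atp5g1 was both the most abundant member by TPM and the one with the smallest log2 fold change. It measured 952, 1068, 1249.7, 1295 and 1038 CPM in WT and 1207, 922, 1048, 1033 and 1012 CPM in recent KO samples, which overlapped (log2 fold change −0.10, SE 0.10, adjusted p = 0.803). The subunits of the catalytic head hardly differed: Atp5b, Atp5a1, Atp5d (delta) and Atp5e (epsilon) had log2 fold changes of 0.00, 0.00, 0.01 and 0.02, and Atp5c1 (gamma) 0.10 (SE 0.06, adjusted p = 0.551).

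The 2 members with an unadjusted p-value under 0.05 both belonged to complex V. Atp5f1, the b subunit of the peripheral stalk, measured 670.3, 764, 677, 745 and 680.4 CPM in WT and 759, 746, 818, 784 and 780.3 CPM in recent KO samples. WT replicate 2 alone reached into the recent KO range (log2 fold change 0.14, SE 0.06, adjusted p = 0.463, edgeR). Atp5f1 overlaps Wdr77 on the opposite strand, which measured 149 and 162 CPM in WT and recent KO samples, and the library kit does not mark strand. Expressed genes on the opposite strand also overlapped Cox4i1 (Emc8), Cox6c (Vps13b), Cox5a (Gm26631), Atp5j (Gabpa), Usmg5 (Taf5) and Atp5a1 (Haus1), so that reads of each pair cannot be told apart where they overlap.

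Atp5g2, the c subunit gene with the fewest reads, had the smallest p-value of all members. It measured 157, 159.9, 190.4, 150.3 and 159 CPM in WT and 202, 188, 186, 198 and 185 CPM in recent KO samples, and only WT replicate 3 reached into the recent KO range (log2 fold change 0.23, SE 0.07, adjusted p = 0.216, edgeR). The identical pseudogene Gm10175 stood at 113 ± 9.89 and 96.3 ± 23.9 CPM in WT and recent KO samples (SD, n = 5), and its log2 fold change was −0.22 (adjusted p = 0.615). Atp5g2 held 59.2% ± 3.39 of the reads of this gene and its 2 copies in WT and 66.9% ± 4.80 in recent KO samples. With their reads summed, the log2 fold change was 0.06 (SE 0.07, adjusted p = 0.846). Of the other members, 17 also had near-identical copies, but only for Cycs did the copies hold more than 2% of the summed reads in the mean of a group.

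The makeup of c subunit mRNA was then compared, a readout chosen after its values were seen and therefore given without a test. Atp5g1 took 54.6%, 53.7%, 55.8%, 56.8% and 52.7% of the summed TPM of the 3 genes in WT samples and 52.1%, 49.2%, 49.2%, 50.5% and 51.2% in recent KO samples. Every recent KO sample thus lay below every WT sample, by 4.27 percentage points between the means. How often such shares separate among gene families in general was not counted. Atp5g3 took 37.6% to 40.9% in WT and 41.0% to 43.8% in recent KO samples, and Atp5g2 5.18% to 6.97% and 6.86% to 7.96%. On estimated reads, Atp5g1 took 47.4% to 51.5% and 44.2% to 46.8%, and with the copies added to TPM, 49.8% to 54.1% and 47.3% to 49.4%, again without overlap. The shares of Atp5g3 overlapped on estimated reads (41.9% to 45.3% and 45.3% to 48.0%). Neither gene was called on its own, and Atp5g3 had a log2 fold change of 0.11 (SE 0.08, adjusted p = 0.694).

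**Figure D3:**
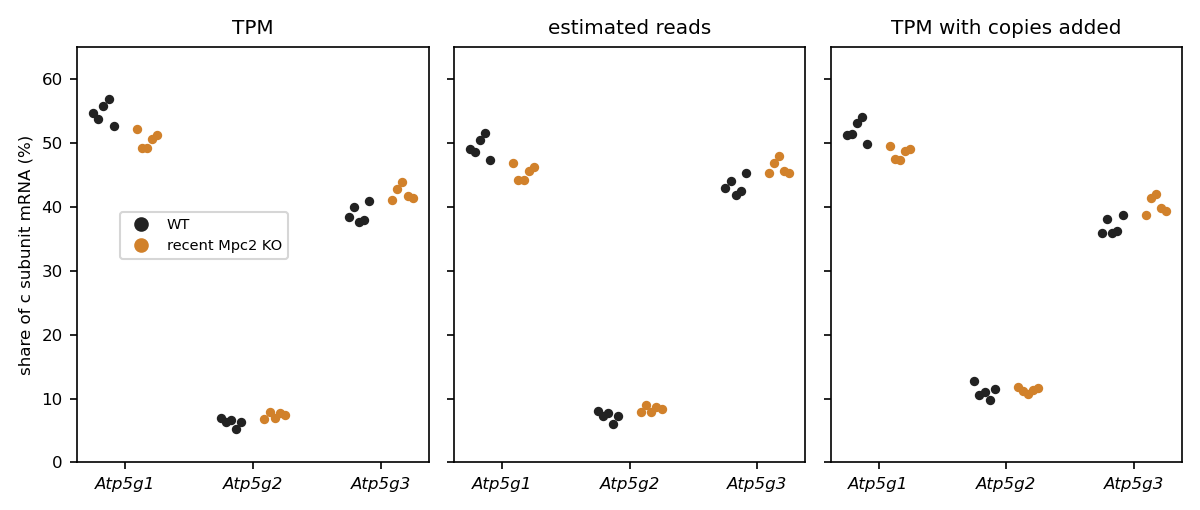
Share of c subunit mRNA (%) taken by Atp5g1, Atp5g2 and Atp5g3 in each WT and recent KO sample, computed on TPM, on estimated reads and on TPM with near-identical copies added. Atp5g1 lies lower in all 5 recent KO samples than in any WT sample on all 3 scales, at 49.2% to 52.1% against 52.7% to 56.8% on TPM.

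Summed by complex, the TPM of nuclear subunits was slightly higher in recent KO samples. Complex III summed to 11102 ± 436 TPM in WT and 11820 ± 374 TPM in recent KO samples (SD, n = 5), a ratio of 1.06. Complex IV summed to 16401 ± 330 and 17263 ± 1069 TPM (ratio 1.05), and complex V to 21179 ± 570 and 22610 ± 1362 TPM (ratio 1.07). The groups overlapped in all 3 sums, with recent KO replicate 2 within or below the WT range each time. On normalized CPM the ratios were 1.03, 1.04 and 1.03. In TPM the median log2 difference of all genes was itself 0.05. Atp5b differed between the scales by more than this. In TPM it measured 1364 ± 52.0 in WT and 1567 ± 67.6 in recent KO samples, with no overlap. In CPM it measured 2782 ± 155 and 2787 ± 209. Its main transcript held 99.3% ± 0.706 of its reads in WT and 97.8% ± 1.48 in recent KO samples. The part of this division in its TPM was not tested.

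**Figure D4:**
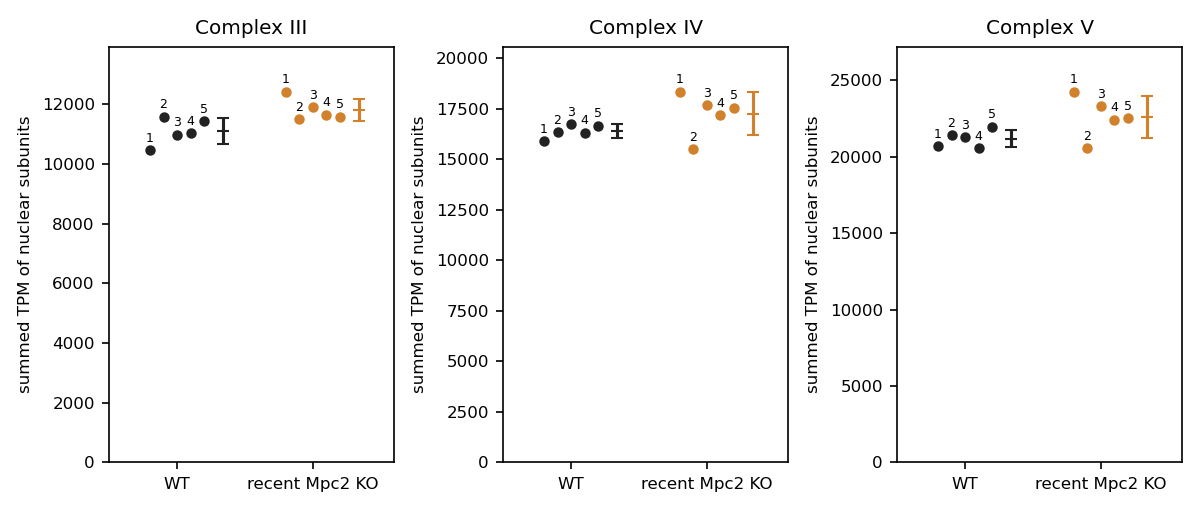
Summed TPM of the nuclear subunits of complexes III, IV and V in each sample (points, numbered by replicate), with the mean and SD of each group beside them. Recent KO replicate 1 is the highest sample in each panel, and recent KO replicate 2 lies within or below the WT range.

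Much of the spread among members went with 3 libraries and with transcript length. Relative to the WT mean, the median member stood 0.27 higher on the log2 CPM scale in recent KO replicate 1, 0.16 lower in recent KO replicate 2 and 0.23 lower in WT replicate 1, while the other 7 libraries lay between −0.00 and 0.11. No member was below the WT mean in recent KO replicate 1, against 30 of 43 in recent KO replicate 2 and 39 in WT replicate 1. In recent KO replicate 2 the 29 members with an effective length under 500 bases had a median of −0.22 and the 14 longer ones a median of 0.08. The same libraries deviated in the same direction over all 862 short genes tested, with medians of 0.24, −0.18 and −0.14, and stayed between −0.02 and 0.01 over the 11519 longer genes. Salmon's effective length of transcripts of about 500 bases, which falls as fragments get longer, was 177 bases in WT replicate 1 and 193 in recent KO replicate 2, against 206 to 210 in the other WT and 219 to 223 in the other recent KO samples. The part of fragment length in these values was not tested.

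**Figure D5:**
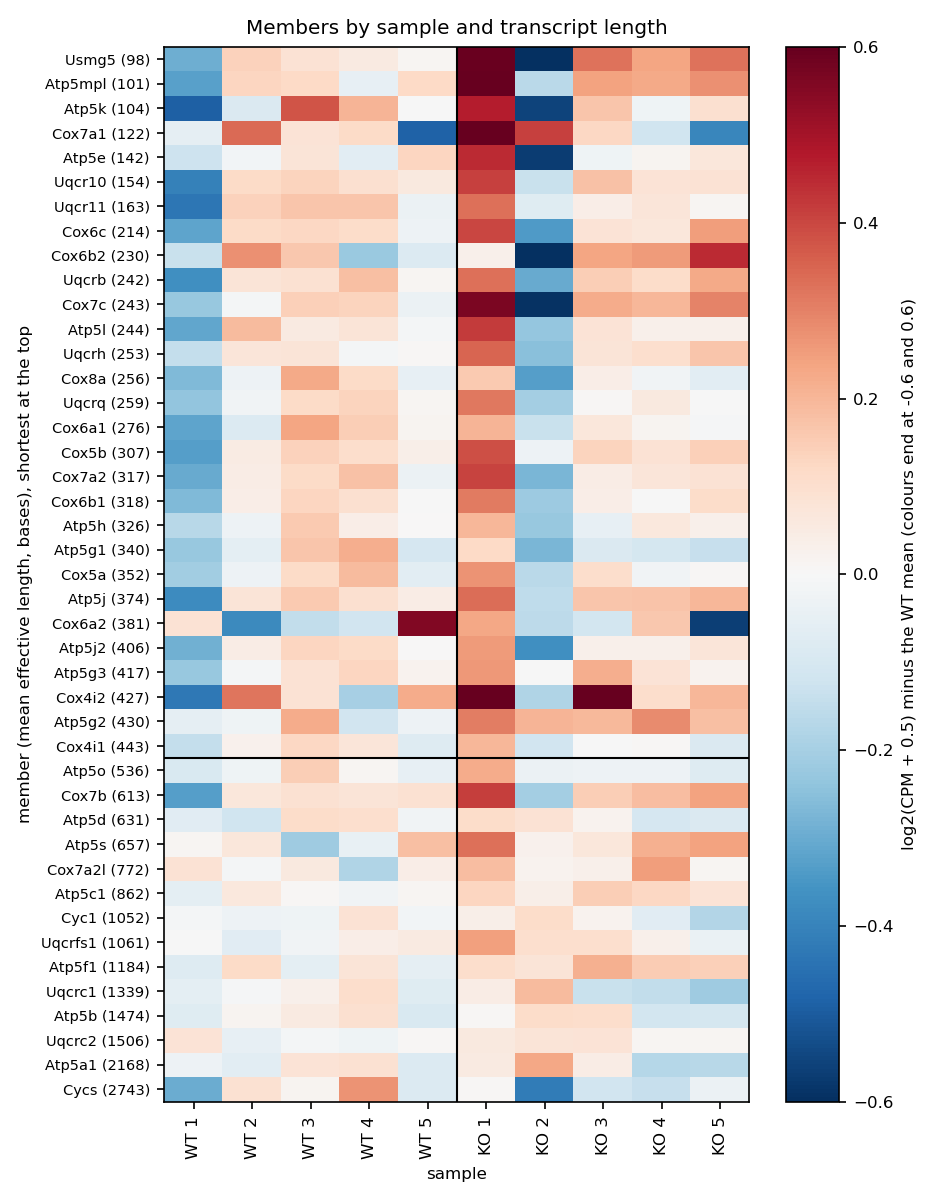
Difference of each member from its WT mean on the log2(CPM + 0.5) scale in every sample, with members ordered by effective length from the shortest at the top and a line at 500 bases. WT replicate 1 and recent KO replicate 2 are low and recent KO replicate 1 is high for the short members, and most of the long members at the bottom differ less, with Cycs and Cox7b as exceptions.

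The shift of the members varied with these libraries. The median log2 fold change was 0.07 over the short and 0.03 over the long members. It was 0.04 over all 862 short genes and −0.01 over the 11519 longer genes. With transcript length as an offset in the fit, the medians of short and long members became 0.03 and 0.05, and 26 of 43 members were above 0. Without WT replicate 1 the median over members was 0.00 with 23 above 0, and without recent KO replicate 1 it was 0.00 with 22 above 0. Without recent KO replicate 2 it was 0.12, 11 members had an unadjusted p-value under 0.05 (12.9% of all genes) and 6 had groups that did not overlap (5.38% of all genes), but none passed the adjusted threshold. Libraries were also left out together, in alternatives added after the data were seen. Without both low libraries (WT replicate 1 and recent KO replicate 2) the median was 0.09 with 32 above 0, and with recent KO replicate 1 left out as well it was −0.01 with 20 above 0. No member was called in either case.

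Members also moved together between samples within groups. Over the 10 samples, after subtraction of group means, the median Pearson r was 0.49 over the 903 pairs of members and −0.02 between members and all other tested genes. This is a description, since all pairs share the same libraries. The members were also unlike the other genes in length. Of them, 29 were short, whereas all genes tested comprised 862 short and 11519 longer ones. Pairs of members with other short genes were not examined separately. The short subunits Cox7a2 and Cox6b1 had the highest median r with the others (0.88 and 0.86), and the long subunits Uqcrc2 (−0.46), Atp5a1 (−0.08), Cyc1 (−0.08) and Uqcrc1 (−0.06) had the lowest.

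The division of reads between transcripts of 1 gene was compared for 45 transcripts of 39 members that held at least 20% of their gene's reads. In exact two-sided permutation tests, 8 of them had an unadjusted p-value under 0.05 (17.8%, against 6.12% of the 10775 transcripts of all genes). Among the 8, Uqcrq-201 and Uqcrq-203 are opposite sides of the division of reads in 1 gene. The main transcripts of Cox8a, Cox4i1, Cox6a1, Uqcr11 and Atp5mpl, also among them, differed by at most 0.416 percentage points between the group means. The smallest p-value that 5 samples against 5 allow is 0.00794, so adjustment over all transcripts could hardly have let any pass, and none did (smallest adjusted p = 0.737, exact test). The groups did not overlap for 1 transcript, Cox8a-201, with 99.99% ± 0.00867 and 99.96% ± 0.0156 of the reads (SD, n = 5), against 1.08% of all transcripts. The main Cox7b transcript held 96.1% ± 2.40 in WT and 90.1% ± 3.27 in recent KO samples, with overlap. Within the groups its share was highest in WT replicate 1 (99.3%) and recent KO replicate 2 (95.5%). The share of Uqcrq-201 was highest in the same libraries (62.3% and 60.0%). The part of these libraries in the transcript shares was not tested.

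Partners of these subunits were examined as well. None of the 6 complex III, 27 complex IV and 6 complex V genes listed with the assembly factors was called. The lists also held Ndufa4, a subunit of complex IV outside the symbol rule, and Atpif1, an inhibitor of the ATP synthase. The smallest p-value of each list belonged to Bcs1l, which inserts the Rieske protein (log2 fold change 0.13, adjusted p = 0.597), Cox15, a heme A synthase (0.14, adjusted p = 0.494), and Tmem70, which assembles the c ring (0.16, adjusted p = 0.401). Of the 6 subunits encoded by mitochondrial DNA none was called, 5 were above 0 and the median was 0.10, with mt-Co2 at 1804 ± 269 and 2042 ± 269 CPM in WT and recent KO samples (SD, n = 5; log2 fold change 0.18, adjusted p = 0.655). Of 15 tested regulators of nuclear respiratory genes none was called, and Myc had the smallest p-value (254 ± 19.3 and 292 ± 24.1 CPM, log2 fold change 0.20, adjusted p = 0.329). Ppargc1a, a coactivator of mitochondrial biogenesis in other tissues, was at or near 0 in every sample.

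Among the listed transcripts that mark cell types, only C1qa, C1qb, C1qc and Ighm were called. The 15 GMP markers summed to 90464 to 127771 CPM in WT samples and 53967 to 92374 CPM after deletion. Of them, 13 had a log2 fold change below 0 (median −0.38, none called), while Kit (0.08) and Cd34 (0.25) were above 0. The largest parts of the sums were Mpo (means of 61005 and 42407 CPM in WT and recent KO samples) and Elane (24646 and 15884 CPM). All 11 tested erythroid and megakaryocytic markers were above 0, and their sums ranged from 58.4 to 110.1 CPM in WT samples and from 89.6 to 331 CPM in recent KO samples. The 10 macrophage markers summed to 24.3 to 52.8 and 54.3 to 105 CPM, with 9 above 0. C1qa, C1qb and C1qc among them rose (3 called). Vcam1 (0.18) and Slc40a1 (0.07) were not called, and Adgre1 was below 0 (−0.39, not called). The 10 late neutrophil markers summed to 207 to 548 and 213 to 943 CPM. Of 13 lymphoid markers 4 were tested, and Ighm was called lower (log2 fold change −0.78, adjusted p = 0.0468, edgeR). Nkg7 (−0.25), Cd79b (−0.11) and Klrb1c (0.22) were not called. Igkc, not tested, ranged from 0.0777 to 0.659 CPM in WT and from 0.141 to 28.2 CPM in recent KO samples. The 8 basophil and mast cell markers summed to 285 to 487 and 360 to 541 CPM, with 5 above 0, 3 below and none called. The part of these cells in the values of the members was not tested. In sorted bulk samples, fewer cells of a type and less RNA per cell cannot be told apart.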

How the data were processed

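RNA-seq of 5 WT and 5 recent KO GMP samples was analyzed, with groups and replicate numbers from the labels. The authors sequenced paired-end 150-bp reads of SMARTseq V4 libraries and mapped them with Salmon 1.5.1 (version per the submitters' processing notes) to Gencode M27 transcripts. The deposited files give Salmon's estimated counts per transcript, which need not be whole, the TPM, and effective transcript lengths. The authors' own DESeq2 (2.11.40.6) table, which holds a mean, log2 fold change, error, and p-values per gene, was not used.

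Transcripts were matched by unversioned identifier to GENCODE M21 (GRCm38), an older annotation (97.4% matched, with 0.348% to 0.390% of reads left out), and estimated counts were summed per gene and rounded. edgeR 4.0.16 (R 4.3.3) quasi-likelihood tests with TMM were run on 12381 genes kept by filterByExpr (minimum count 10), without a replicate block, and p-values were adjusted by the Benjamini-Hochberg method at 0.05. Confidence intervals used the fit's degrees of freedom. The script was tested on simulated data. Near-identical copies were transcripts of other genes matching at 95% identity over 80% of the shorter of both transcripts (BLAST 2.17.0). Shares of transcripts were adjusted over all genes rather than over the members alone. Amplified cDNA without molecular identifiers means that errors and the floor of 3 counts cover counting error only.

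The members and lists were chosen with earlier results of these data known. By rule, full values were given for members that passed the adjusted threshold or had separate groups, and per complex (cytochrome c with complex III) for the most abundant member by TPM and those with the largest and smallest log2 fold change at a mean count of at least 50. Atp5g2, Atp5f1, Atp5b, Uqcrc1, and the Atp5g1 share were added after their values were seen. Alternatives were normalization by RLE, by the upper quartile, or by library size alone, other count filters, a length offset, robust dispersions, a replicate block, DESeq2 1.42.0, limma 3.58.1 on log2(TPM + 1) and log2(TPM + 0.1) for a mean TPM of at least 1, added copies, and leaving out samples. Sequences came from GENCODE M21 transcripts and the RefSeq promoter table, and protein sequences were not used here.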

Additional observations from a re-analysis of the deposited data

Results flagged for a closer look

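Of 36 groups of 5 samples examined, 2 held a sample whose gap to its nearest neighbor exceeded 0.71 of the group's range, and chance flags about 1 in 20 groups. Uqcr10 in WT replicate 1 measured 350.1 CPM, whereas the other WT samples measured 482 to 509 CPM. Atp5g2 in WT replicate 3 measured 190.4 CPM, whereas the other WT samples measured 150.3 to 159.9 CPM.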

How the results depend on the processing

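No setting called a member at the adjusted threshold, over 24 alternatives, and the smallest adjusted p-value of any member was 0.0616, with 3 libraries left out. Of the 12381 genes, 41 were called in the main comparison. This count was 206 with no filter on low counts and 156 with DESeq2, each over 27909 genes. It was 25 and 24 in the limma fits to log2 TPM with pseudocounts of 1 and 0.1, and 20 with the replicate block. Without both libraries low for short transcripts (WT replicate 1 and recent KO replicate 2) it was 71, and 293 with recent KO replicate 1 left out as well. It was 25 to 91 when samples were left out in turn (91 without recent KO replicate 2). Same-numbered samples did not deviate together (r from −0.177 to 0.058), so the replicate numbers were not taken as pairs. The replicate block gave 0 called members and a median log2 fold change of 0.06.

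Members with separate groups numbered 2 with library size only (2.34% of all genes), 2 with each limma fit on TPM (1.96%), 0 to 6 when samples were left out in turn (6 without recent KO replicate 2, 5.38%), and 7 and 9 without the 2 and 3 libraries named above, where 7.48% and 15.0% of all genes were separate.

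Log2 fold changes turned below 0 for Uqcr11 with a length offset (−0.0057) and without the 3 libraries (−0.066), and ranged from −0.028 to 0.106 when samples were left out in turn (−0.028 without WT replicate 1 and −0.0034 with recent KO replicate 1 left out). Those of Cox6a1 did so with a length offset (−0.039) and without the 2 (−0.0064) or 3 libraries (−0.054), and ranged from −0.050 to 0.083 when samples were left out (−0.050 and −0.00068 without WT replicates 1 and 2, and −0.025 when recent KO replicate 1 was dropped). Cox8a turned above 0 with library size only (0.033) and ranged from −0.105 to 0.022 when samples were left out (0.016 without WT replicate 3, 0.022 for recent KO replicate 2). For Mpc2 the log2 fold change and adjusted p-value (edgeR, except for limma where named) were −1.40 and 0.0727 with a length offset, −1.46 and 0.134 with robust dispersions, −1.46 and 0.0577 with the replicate block, −1.35 and 0.130 or −1.38 and 0.138 with limma, and −1.60 to −1.31 when samples were left out (adjusted p = 0.05005 without recent KO replicate 1).

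The summed TPM ratio of complex IV was 1.04 to 1.08 when samples were left out. On CPM, the ratio was 1.03 for complex V and 1.03 over all members. The Atp5g1 share was also lower in recent KO samples on both other scales, which rest on the same reads. As its groups did not overlap, leaving out samples could not reverse its direction, so those alternatives say nothing about it. The cause of these changes was not tested. Cox4i2, Cox6a2 and Cox7a1, with 17 to 21.7 mean reads, had the widest intervals.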
